A study of Drosophila melanogaster with 12 samples.

Results

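The regions described here are all those placed on chromosome 4 of Drosophila melanogaster by the list of 9 chromatin states that was used to count the reads of this study. They were chosen by chromosome name alone, with every state kept, and 1 further entry of that name was left out because it starts beyond 17 Mb. This left 442 of 42126 regions. The list came from the modENCODE project and was not made from these testes, so a state label is a property of the list and not a measurement in the sampled cells.

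The study used chromatin immunocleavage (ChIC), in which an anti-GFP antibody brings a protein A-MNase fusion to tagged histones and the released DNA is sequenced. The 4 groups were testes of males aged for about 2 days after eclosion, in which the histone fused to GFP was H3, its mutant H3A31S, H3.3 or its mutant H3.3S31A, with 3 replicates each (12 libraries). H3A31S carries the serine of H3.3 at the residue where H3 has alanine, and H3.3S31A carries the reverse change. Males of every group carried hsFLP, a UAS-Upd transgene and a Gal4 driver under the nanos promoter, so that Upd, a ligand of the JAK-STAT pathway, produced testes filled with GSC-like and somatic stem cell-like cells. The tag was driven in the germline only, each library pooled the testes of several males, and testes were picked for their large size and for how few differentiating germ cells they held. In the H3A31S males the histone transgene lay on another chromosome than UAS-Upd and a different nos-Gal4 line was used, so that histone and driver cannot be told apart there. The reads of the 12 libraries stand in unnamed columns. They were therefore used only as their sum, and no histone was compared with another.

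The fourth, or dot, chromosome of Drosophila is the smallest of the set. Most of its length is packed with HP1a and methylated H3K9, the marks of pericentromeric heterochromatin, and it is rich in remnants of mobile elements, yet its genes are transcribed in many tissues, and the chromosome-specific protein POF binds them. State 7 of the list stands for pericentromeric heterochromatin, State 1 for promoters and transcription start sites (TSSs), State 2 for transcription elongation, State 3 for regulatory regions and State 4 for active introns. State 5 stands for active genes of the male X, State 6 for Polycomb repression, State 8 for heterochromatin-like stretches within euchromatin and State 9 for silent intergenic DNA.

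The sequences that decide how the reads on chromosome 4 can be read are shown first. The first pair are the edges of the only run of unknown bases in the dm6 assembly of chromosome 4, where no read can align. The capitals mark the unknown bases, and all letters are of the plus strand.
Start of the run, chr4:1200623-1200682: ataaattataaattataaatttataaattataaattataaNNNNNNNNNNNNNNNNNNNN
End of the run, chr4:1217643-1217702: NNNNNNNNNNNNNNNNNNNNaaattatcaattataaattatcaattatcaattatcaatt
The next 50 bases are from the middle of a State 3 region of 26000 bp at the right end that held 1 read in all 12 libraries. They lie in TART-A, a retrotransposon that transposes to chromosome ends and maintains them, and occur 5 times in dm6.
TART-A, chr4:1337916-1337965: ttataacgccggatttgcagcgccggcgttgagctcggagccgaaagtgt
The last 3 are from the middle of the regions with the most reads per kb among those of at least 1000 bp, and each occurs once in dm6. The first lies between exons of RpS3A, which encodes a protein of the small ribosomal subunit, the next in Mitf, which encodes a transcription factor of lysosomal genes, and the last just beside PlexA, which encodes a receptor in axon guidance.
RpS3A, chr4:65816-65865: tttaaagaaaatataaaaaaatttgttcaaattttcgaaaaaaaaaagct
Mitf, chr4:1219616-1219665: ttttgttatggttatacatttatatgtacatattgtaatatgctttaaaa
Beside PlexA, chr4:1027416-1027465: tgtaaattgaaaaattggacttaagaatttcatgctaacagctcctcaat

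The reads followed the listed coordinates on dm6. The run of unknown bases spans chr4:1200663-1217662 (17000 bp) within the annotated Mitf gene. The 6 regions wholly inside it held 0 reads, and so did the last region, which starts past the end of the assembled chromosome (1348131 bp). To the left of the run, the State 7 region at chr4:1167941-1200740 (32800 bp) held 22335 reads, or 681 reads per kb (95% exact Poisson interval 672 to 690). Inside it, the State 7 region at chr4:1202741-1216540 (13800 bp) held 0 reads, which allows up to 0.217 reads per kb (3 reads). A State 1 region that reached just past its right edge (chr4:1216541-1217740) held 4 reads, and the State 7 region at chr4:1217541-1219140 held 606 per kb (569 to 646). The change from over 600 reads per kb to 0 therefore fell at the edges of the run, within the length of 1 region. The intervals cover counting error only, since the spread between libraries was not measured.

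**Figure D1:**
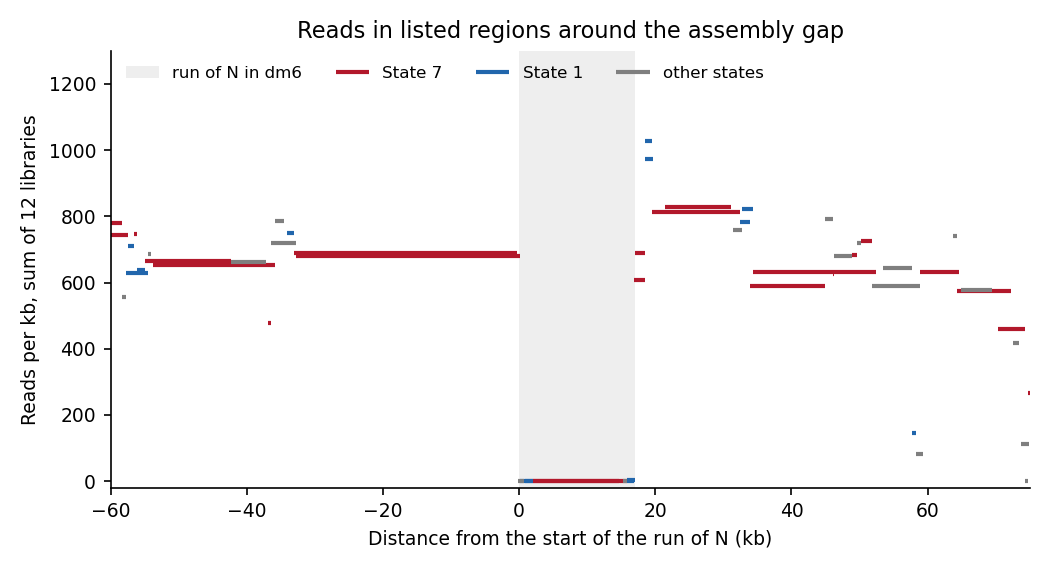
Summed reads per kb of 12 libraries (vertical axis) in chromosome 4 regions against the distance in kb from the start of the run of unknown bases (horizontal axis). Each bar spans 1 region, in red for State 7, blue for State 1 and grey for other states, and the shaded band is the run; regions wholly inside it are at 0, and the regions on both sides lie at 606 to 1027 reads per kb next to the right edge and 681 to 689 next to the left edge.

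The counts also belonged to the regions in the order of the list. On chromosome 4 there were 253 pairs of regions of which one lay wholly inside the other, and in 0 of them did the inner region hold more reads. Over all 6 chromosome arms this was 0 of 21802 pairs.

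State 7 covered most of the chromosome. The median region was 1800 bp long. All 442 together covered 1347 kb, of which the last 3809 bp lay past the end of dm6 chromosome 4 (1348131 bp). State 7 held 183 of them with a median of 5400 bp, and covered 86.1% of the covered bases. On the arms 2L, 2R, 3L and 3R it covered 6.52%, and on X 2.75%. The longest, at chr4:717741-807340 (89600 bp), spanned bt, the gene of a giant muscle kinase, MED26, which encodes a subunit of the Mediator complex, and parts of ey and Sox102F.

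The silent intergenic State 9, the leading state of the other autosome arms with 47.9% of their covered bases, took 1.34% of chromosome 4 in 17 regions. State 8 followed State 7 with 12.1% in 55 regions, and Polycomb State 6 with 10.4% in only 16 regions. The longest State 6 region, at chr4:512741-549340 (36600 bp), lay over zfh2, which encodes a zinc finger homeodomain factor, and Tdg. Chromosome 4 thus had much more State 7 and much less State 9 than the other arms. Its share of State 6 was within 3 percentage points of that of the other autosome arms (8.19%), and X had 6.43%.

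The states of active genes were unequal in size. State 1 had 99 short regions (median 1400 bp) and 8.83% of covered bases, against 8.28% on the other autosome arms. State 2 had 38 regions and 6.09%, against 18.6% there, and State 3 had 23 regions and 6.38%, against 12.2%. The active introns of State 4 made up 1.14% of chromosome 4 in 8 regions, against 19.3%. State 5 had 3 regions and 0.282%. Promoter regions therefore took a similar share of chromosome 4 as of the other autosome arms, and elongation and active introns took smaller shares. On X, State 2 covered 0.425%, less than on chromosome 4.

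**Figure D2:**
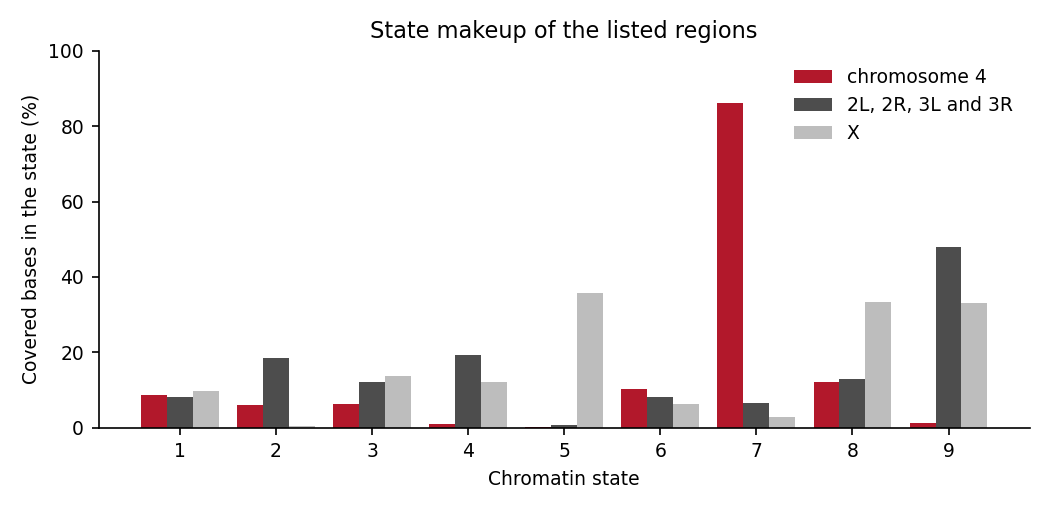
Share of covered bases in each of the 9 states (vertical axis, percent; horizontal axis, state number) for chromosome 4 in red, the arms 2L, 2R, 3L and 3R in dark grey and X in light grey. State 7 is at 86.1% on chromosome 4 and at 6.52% on the other autosome arms; a base in 2 regions of different states counts in both, so bars add up to more than 100%.

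Most of chromosome 4 was listed in layers. Of its covered bases, 92.1% lay in 2 regions and 0 lay in more than 2, and no region repeated the coordinates of another. Where a base had 2 regions, they gave the same state in 64.6% of cases, against 64.4% on the other autosome arms and 51.4% on X. A base of chromosome 4 can thus be listed under State 7 and under another state. The sources used here do not say why a base has 2 labels, so this does not show 2 states in the same cells.

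The pairs of labels differed by state. State 7 lay over State 7 in 57.3% of the doubly listed bases, State 7 over State 8 in 11.2% and State 7 over State 6 in 9.32%. State 1 was paired with itself in 54.1% of the doubly listed bases that held it. State 6 was paired with itself in 12.7% and with State 7 in 82.7%. State 8 was paired with itself in 0.995% and with State 7 in 86.6%. On chromosome 4 the Polycomb and heterochromatin-like labels were therefore mostly laid over State 7.

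Summed reads were even along most of chromosome 4. The 442 regions held 1662836 reads, which was 1.44% of the reads summed over all regions and 1.10% of the length on the 6 arms. Reads of doubly listed bases count in both of their regions. The level was 643 reads per kb, with a median over regions of 720 and quartiles of 648 and 779. Among regions of at least 1000 bp, the most, 1040 reads per kb (1001 to 1080), were in the State 7 region at chr4:64541-67140 over RpS3A. It was followed by the State 1 region at chr4:1219141-1220140 in Mitf with 1027 (965 to 1092), and by the State 8 region at chr4:1026941-1027940 across the start of PlexA with 996 (935 to 1060). These 3 regions were of 3 different states, each with all of its 50-base words found once in dm6. A shorter State 1 region, at chr4:230741-231540 (800 bp, singled out after its value was seen), held 1010 reads per kb.

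Low values lay mostly in repeated DNA or where dm6 has no sequence. A region's uniqueness was taken as the share of its 50-base words found once in dm6, 50 bases being the length of the study's reads, because reads of low mapping quality had been removed. The 356 regions with at least 90% unique words held 418 to 1040 reads per kb, with a median of 744. The 49 regions between 50% and 90% had a median of 589. The 37 regions below 50%, among them the 7 with no sequence in dm6, had a median of 83.0. Over 435 regions with sequence, reads per kb correlated with uniqueness (r = 0.906, Spearman's rho = 0.618) and inversely with the share of mobile elements (r = -0.699, rho = -0.419). These are descriptions over regions that overlap each other and share the same libraries.

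**Figure D3:**
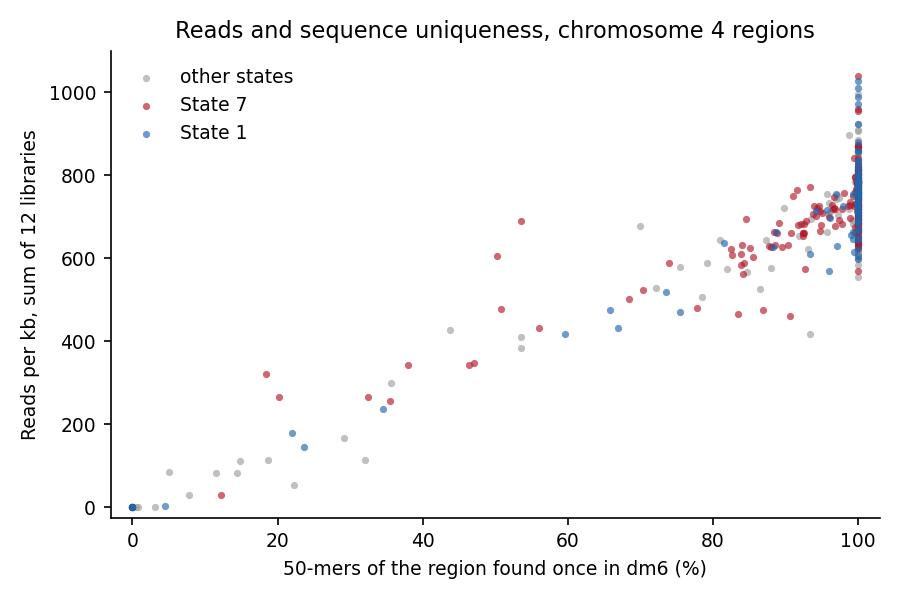
Summed reads per kb of 12 libraries (vertical axis) against the percent of the region's 50-base words found once in dm6 (horizontal axis). Each point is 1 of 442 regions, red for State 7, blue for State 1 and grey for other states. The 356 regions at or above 90% lie between 418 and 1040 reads per kb, whichever their listed state. The points fall to 0 with falling uniqueness, and the 7 regions with no sequence in dm6 lie at 0 on both axes.

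Regions listed under different states differed little once repeated DNA was set aside. The State 1 labels fitted genes best after a move of -20.6 kb (described below), while reads were counted at the listed coordinates. These values are therefore levels of listed regions and cannot show whether the chromatin states differ. Over all regions, State 2 had 417 reads per kb and State 3 had 418, whereas State 1 had 695, State 6 had 718 and State 7 had 646. Among regions with at least 90% unique words, State 2 had 740 (30 regions), State 3 721 (16 regions), State 1 759 (82 regions), State 6 731 (14 regions) and State 7 718 (146 regions). The low values of States 2 and 3 were thus not seen in unique DNA. State 4 had the most, 786 reads per kb in 8 regions, all unique to at least 90%, and its regions ranged from 713 to 898. State 8 had 739 (45 regions) and State 9 761 (13 regions) in unique DNA, and State 5 had 675 in 2 regions. In each of States 1, 7 and 8 single unique regions ranged more widely, from 570 to 1027, from 460 to 1040 and from 585 to 996, than the states differed from each other.

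The longest regions of States 1, 4, 5, 6, 7, 8 and 9 lay between 633 and 817 reads per kb, and those of States 2 and 3, at the right end of the chromosome, were at 86.4 and 0.038. The State 1 region at chr4:691341-701540 (10200 bp) over myo, which encodes a TGF-beta ligand, and the start of ey held 785 reads per kb (768 to 802). The State 6 region over zfh2 held 719 (711 to 728), and the State 8 region at chr4:170741-187940 (17200 bp) held 734 (722 to 747). The State 4 region at chr4:244541-251540 over dpr7, a cell surface protein gene, held 755 (735 to 776). The State 5 region at chr4:645541-647340 at the start of Ekar held 817 (776 to 860), and the State 9 region at chr4:1130741-1133740 held 812 (780 to 845). The long State 7 region over bt held 633 (628 to 638), and 90.4% of its words were unique.

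Both ends of the chromosome had few reads. The first regions, State 7 at chr4:1741-62140 and chr4:1741-62940 over JYalpha, a sodium pump subunit gene, PlexB and ci, held 342 and 348 reads per kb, and 46.4% and 47.1% of their words were unique. At the right end, the State 7 region at chr4:1275341-1317940, which mobile elements covered in full, held 266 reads per kb at 20.1% unique words. HeT-A, a retrotransposon of fly telomeres, lay there, and most of TART-A, another, lay to the right of this region. The State 2 region at chr4:1317741-1351940 (34200 bp) held 2956 reads, or 86.4 per kb (83.3 to 89.6), and the State 3 region at chr4:1324941-1350940 held 1 read. These 2 regions made up 34200 bp of the 83400 bp listed as State 2 and 26000 bp of the 90000 bp listed as State 3. Their listed ends also run 3809 bp and 2809 bp past the end of dm6.

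Of the 12 regions with 0 reads, 7 had no sequence in dm6 and 5 lay wholly in mobile elements. Of the 5, State 3 at chr4:77341-80340 and State 1 at chr4:80341-81740 lay in an I element of 5368 bp, a non-LTR retrotransposon, within pan. The others were a pair of State 2 regions in a Tirant element of 8526 bp within CG11360, and a State 8 region of 400 bp in HeT-A and 1360 sequence. In all 5 the share of unique words was at most 3.13%.

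Within pan, which encodes the TCF factor of the Wnt pathway, the reads followed the I element. To its left, the State 1 region at chr4:71141-72940 held 775 reads per kb (735 to 817). The State 1 region at chr4:76341-76940, across the element's left edge, held 237, and the State 3 region at chr4:76941-82740 held 113. Inside it both regions were at 0, which allows up to 1.00 and 2.14 reads per kb. To its right, the State 7 region at chr4:82741-86340 held 684 (657 to 711), and the State 2 region at chr4:108341-110340 held 803 (764 to 843). The same State 1 label thus stood over 775, 237 and 0 reads per kb within 1 gene.

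Mobile elements are a larger part of chromosome 4 than of any other arm. The RefSeq annotation of dm6 places 566 of them there, over 24.8% of its length, against 3.43% to 7.00% on the other arms. INE-1, a short DNA transposon remnant, was the most frequent with 344 copies and 97.4 kb. The DNA transposon 1360 followed with 60 copies and 55.6 kb, and HeT-A had 15 copies and 44.3 kb. Most were short, with a median of 246 bp, and 27 were at least 3000 bp long. The share of unique words in the regions of chromosome 4 (86.2%) was not far from that of the other autosome arms (89.9%), although the share of mobile elements was 23.7% against 5.25% of summed region length.

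Chromosome 4 held more reads per kb than the other autosome arms. Its 643 reads per kb compared with 534 on 2L, 2R, 3L and 3R together, where single arms ranged from 495 to 557, and with 290 on X, of which males have 1 copy. The ratio to the other autosome arms was 1.20, or 1.25 per kb of unique words. GC content was 35.2% in the regions of chromosome 4 and 42.1% on the other autosome arms, and its part in the ratio was not tested. Among the unique regions of chromosome 4, reads per kb and GC content correlated weakly (r = -0.244, rho = -0.282, 356 regions). No input or total histone library was used here, so that the number of tagged histones per copy of DNA was not measured.

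The difference was larger in State 7. There the ratio was 1.84, with 646 reads per kb on chromosome 4 against 352 on the other autosome arms (253 to 437 by arm). Per kb of unique words it was 1.19, with 745 against 627. In the State 7 regions 86.7% of words were unique on chromosome 4 and 56.1% on the other autosome arms. Regions listed as State 7 on chromosome 4 thus differed from those listed so elsewhere in their DNA as well as in their reads. In unique DNA the State 7 ratio was no larger than that of the whole chromosome. Mobile elements made up 24.2% and 31.5% of the State 7 regions on 2L and 3L, but 3.74% on 2R and 2.22% on 3R. How well the labels of the other arms fit dm6 was not examined here, so these values too are levels of listed regions.

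The State 1 labels met the genes of dm6 best after a move. Of 142 annotated TSSs of 80 protein-coding genes, 20 (14.1%, 95% Wilson interval 9.31 to 20.8) lay in a State 1 region at the listed coordinates, and 119 (83.8%) lay in State 7. When all State 1 regions were moved along the chromosome in steps of 200 bp, the share was highest at -20.6 kb, with 81 TSSs (57.0%, 48.8 to 64.9). Over 4500 offsets more than 50 kb from there it reached at most 16.9%, with a median of 7.04%. TSSs of 1 gene are not independent of each other, but with 1 TSS per gene the best offset was the same, at 55.0% of 80 genes against 13.8% as listed.

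The match was not owed to 1 stretch of the chromosome. In each of the 8 windows of 150 kb up to 1200 kb, more TSSs lay in State 1 after the move than before, with 2 of 8 TSSs against 1 in the window from 750 to 900 kb and 12 of 15 against 1 in the first. Beyond 1200 kb, 0 of 4 TSSs lay in State 1 either way. Of the 99 State 1 regions, 23 held a TSS as listed and 77 after the move. Part of these rises follows from choosing the offset by the same TSSs. Exonic bases lay in State 2 most often at another offset, -210200 bp, where the share was 9.06%, against 5.40% at -20.6 kb and 3.63% as listed. At -20.6 kb the share was below the 6.09% of chromosome 4 that State 2 covered, so State 2 did not single out the offset found with State 1. Of the 83400 bp listed as State 2, 34200 were 1 region at the right end without protein-coding genes. No coordinate was converted, and the build of the list is not given in the sources used here.

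**Figure D4:**
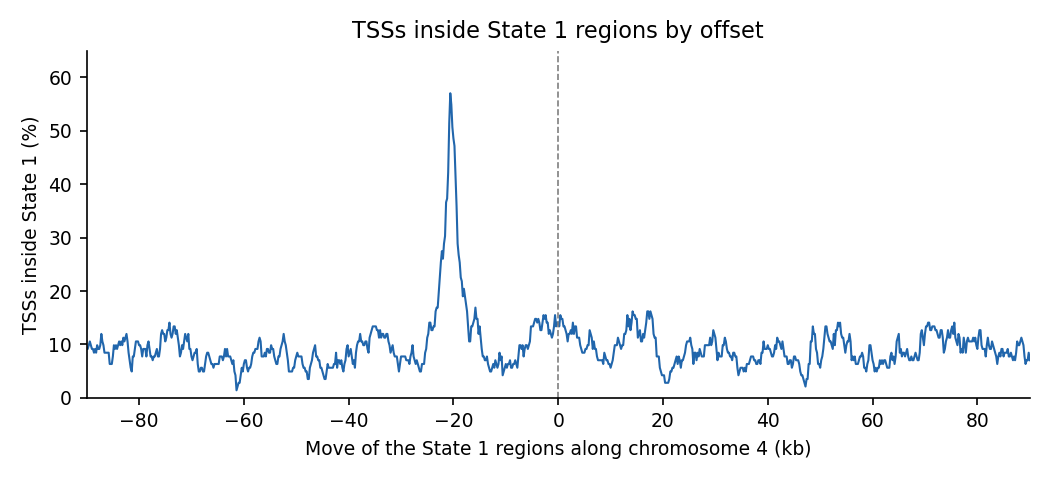
Percent of 142 TSSs of chromosome 4 inside State 1 regions (vertical axis) after all State 1 regions were moved by the distance on the horizontal axis (kb; dashed line, the listed position). The line has 1 peak, 57.0% at -20.6 kb, and the listed position is at 14.1%.

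The reads did not share this offset. Moved by -20.6 kb, 4 regions would lie wholly inside the run of unknown bases, and these held 11273 reads, at 760 to 828 per kb. They are listed beyond 1200 kb, however, where 0 of 4 TSSs lay in State 1 after the move. In the first 150 kb, 12 of 15 TSSs did, and there the reads followed the I element of pan at its listed place. At the listed coordinates the 6 regions inside the run of unknown bases held 0. The reads were thus those of the dm6 DNA at the listed position, whereas the State 1 labels up to 1200 kb fitted genes 20.6 kb to the left. Where this offset applies, a region's reads and its State 1 label refer to different DNA. Of the bases that carried a state, 12.4% of State 1 bases, 19.8% of State 6 bases and 0% of State 4, State 5 and State 9 bases had the same state after the move. State 7 bases kept theirs in 86.9%, since State 7 covers most of the chromosome. Reads per kb are for this reason described by region and by DNA, and no level is given for promoters.

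Genes of chromosome 4 were then followed in 3 lists, for which all 43 genes were found in the annotation, Arf102F as Arf4 and Thd1 as Tdg. The growth and housekeeping list had the most State 1 after the move. A TSS of 16 of its 17 genes lay in State 1 then, against 1 of 17 (Asator, a kinase gene of the mitotic spindle) as listed. Among them were RpS3A, eIF4G1, which encodes a translation initiation factor, ND-49, a subunit gene of respiratory complex I, Rad23, of DNA repair, and gw, which encodes the GW182 protein of microRNA silencing. The exception was Dyrk3, a protein kinase gene, which lies beyond 1200 kb. Over all 80 protein-coding genes the counts were 52 after the move and 16 as listed. The offset was itself chosen for the most TSSs of these genes in State 1, so a rise over all genes follows from that choice.

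The transcription factor list did not gain State 1. After the move 4 of its 11 genes had a TSS in State 1, as had 4 as listed, but they were other genes. The 4 after the move were pan, ci, which encodes the factor of the Hedgehog pathway, lgs, which encodes a Wnt cofactor, and Mitf. Those as listed were ey, pan, zfh2 and Sox102F, so that pan was in both. The list of synapse, axon guidance and signalling genes went from 3 to 8 of 15. With a TSS in State 1 after the move were the receptor genes PlexA, PlexB and Eph, its ligand gene Ephrin, CaMKII, which encodes a kinase of synaptic plasticity, unc-13, a gene of synaptic vesicle release, Crk, which encodes a signalling adaptor, and myo. Among those without were bt, mGluR, a glutamate receptor gene, and Syt7, a gene of vesicle fusion.

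Polycomb State 6 stood over developmental regulators after the move. It covered at least 50% of the gene body in 5 of the 80 genes, and all 5 were in the transcription factor list. These were the eye genes ey (66.4%) and toy (71.5%), the Pax gene sv (86.2%), zfh2 (83.3%) and the forkhead gene fd102C (89.4%). Sox102F had 24.2%. State 6 touched 7 genes after the move and 16 as listed. In the transcription factor list it touched 6 of 11 genes both ways. As listed it lay over zfh2 (72.0%) and lgs (77.2%) of that list, and over PlexA (78.1%), Tdg (79.5%), Gyf (67.5%) and the whole of Arf4 outside it. None of the 5 had a TSS in State 1 after the move. State 7 also covered these genes in full or nearly so, with 93.0% to 100% in ey, toy, zfh2 and fd102C, except sv (9.56%). Over all 80 genes the median share of the gene body in State 7 was 94.6% as listed and 88.6% after the move.

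**Figure D5:**
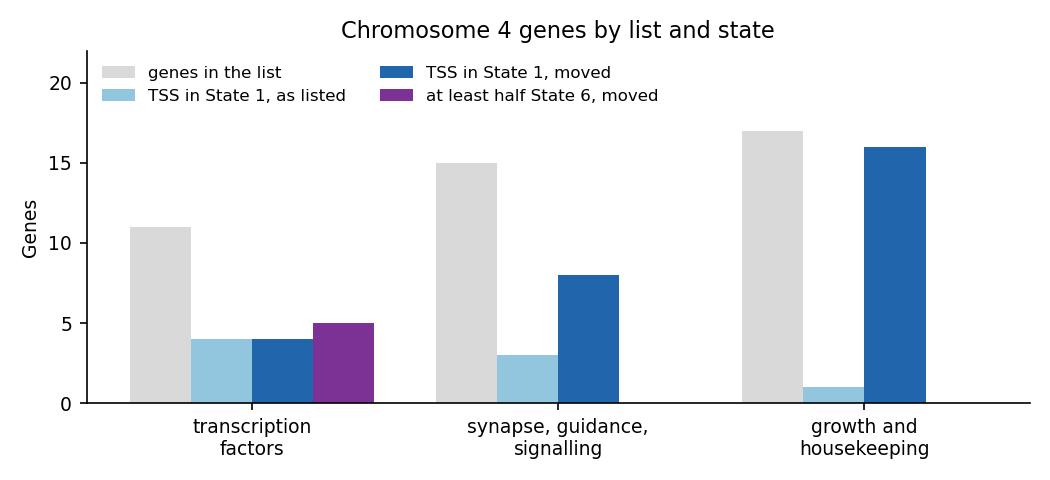
Number of genes (vertical axis) in each of 3 lists of chromosome 4 genes (horizontal axis), with the size of the list in grey, genes with a TSS in State 1 as listed in light blue and after the move by -20.6 kb in dark blue, and genes with at least 50% of their body in State 6 after the move in purple. The growth and housekeeping list rises from 1 to 16 of 17, and the 5 genes with State 6 are all transcription factor genes. The offset was chosen for the most TSSs in State 1, those of these genes included.

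Reads over most of the listed gene bodies lay near the level of the whole chromosome, and the regions inside a few genes stood lower. For the 5 genes under State 6 after the move, regions that lay wholly inside the gene at the listed coordinates held 783 reads per kb in sv (662 to 870 by region), 751 in zfh2 (597 to 924), 686 in ey (657 to 787), 668 in toy (475 to 750) and 610 in the only such region of fd102C. Among genes without State 6 after the move, unc-13 had 740 (645 to 885), bt 707 (585 to 788) and CaMKII 698 (629 to 785). The values of the 5 genes thus lay on both sides of these 3. Some other listed genes without State 6 after the move lay below or above the 3. Among them were Cadps (624), PlexA (644), apolpp (772) and Asator (859, 1 region). The lowest of the listed genes with such regions was Mitf, which holds the run of unknown bases and had 27.5% unique words, with 108 (0 to 1027). Gyf, a gene of translational control, had 431 in 2 regions (411 and 695). These were 2600 and 200 bp long and lay to 96.5% and 100% in mobile elements. A State 6 region that starts in Gyf and runs past it (chr4:860541-872740) held 673, with 100% unique words. Syt7 had 554 (299 to 703), and pan had 590 (0 to 803). Over whole gene bodies the share of unique words was 90.2% in Gyf, 81.3% in Syt7 and 88.0% in pan. It was 97.3% to 99.9% in toy, ey, zfh2 and sv and 78.7% in fd102C. The part of this share in these values was not tested.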

How the data were processed

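Per the labels and the study's methods, the authors aligned 50 bp paired-end reads to dm6 with Bowtie2 (version not given in the sources used here), removed reads of mapping quality up to 10 and duplicates, and counted the reads in each listed region. The deposited counts have 12 columns of per-sample values that carry no names, so none was used singly and only their sum was used. The total read number of a library is therefore not given. The authors downloaded the region list, with states numbered 1 to 9, from the modENCODE project.

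Regions, genes and mobile elements were compared in Python 3.11.15 (numpy 2.4.6, pandas 2.3.3, scipy 1.17.1) with the dm6 genome and RefSeq elements and with Ensembl TSSs of protein-coding transcripts. Reads per kb are summed reads over summed region length. Intervals are 95% exact Poisson or Wilson intervals and cover counting error only, and a count of 0 was given a limit of 3 reads. Regions were not replicates, so no test was run. Named regions were the longest of each state, those at either end, and the 3 regions of at least 1000 bp with the most and the fewest reads per kb (others were singled out after their values were seen). All regions of chromosome 4 and the gene lists were chosen with earlier results of these data known. The offset scan recovered 8 of 8 offsets on simulated data, each with 1 offset along the whole chromosome and a shorter scan. An offset that changes along the chromosome was not simulated. Alternatives concerned length, the chromosome ends, the summary, the choice of TSSs and uniqueness.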

Additional observations from a re-analysis of the deposited data

How the results depend on the processing

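Of 82 alternative values, 35 kept within the limits set, 47 moved and 0 reversed. Shares of regions in place of covered bases were 22.4% for State 1, 3.62% for State 6, 41.4% for State 7 and 3.85% for State 9, and shares of summed length were 3.22% for State 2, 3.48% for State 3, 6.11% for State 6, 72.3% for State 7 and 6.35% for State 8. With regions of at least 1000 bp, 88.3% of covered bases lay in 2 regions, and leaving out bases with State 7 in either region, 54.1% of those in 2 regions had the same state in both. Exonic bases in State 2 gave a best offset of -210200 bp in place of -20600 bp. Medians over regions, in reads per kb, were 747 for State 1, 710 for State 2, 695 for State 3, 820 for State 4, 418 for State 5, 713 for State 7, 706 for State 8 and 758 for State 9. Regions of at least 1000 bp gave 385 for State 2, 404 for State 3 and 649.5 for State 9. Without the outer 50 kb the values were 646 for State 2, 588 for State 3 and 679 for State 7. The following were chosen after seeing the data. Regions with at least 90% unique words gave 759, 740, 721, 675, 731, 718, 739 and 761 for States 1, 2, 3, 5, 6, 7, 8 and 9, and reads per kb of unique words were 756, 780, 735, 802, 685, 732, 745, 747 and 755 for States 1 to 9. The ratio of chromosome 4 to the other autosome arms, 1.20 in the main analysis, was 1.24 by medians, 1.25 per unique kb, 1.23 for regions of at least 90% unique words and 1.27 without the outer 50 kb of chromosome 4. No paired analysis was possible because the libraries are unnamed and only their sum was used. Depth limits a 0 to 3 reads per region, and the spread between libraries could not be had.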

Other observations

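The entry left out by the rule bore the name of chromosome 4 but spanned 17444741 to 17448140, far past the dm6 length of 1348131 bp. It was a State 9 region of 3400 bp and held 0 reads. On the other arms, 27 regions lay wholly in unknown bases or past the end of the dm6 sequence at their listed coordinates, and they too held 0 reads. The 476 regions on names that end in Het held 0 reads as well.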
